A study of Mus musculus with 19 samples.

Results

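The Ly6 genes described here are Ly6a, Ly6c1, Ly6c2, Ly6d and Ly6e, 5 of the 21086 genes in the deposited expression table, all 5 of which passed the filter on low values. They were chosen by name as a family in which Ly6c2 was already known to be higher in late tumours, so every difference between late and early tumours is given below as a description with no test. The series measured polyadenylated RNA in bulk from 19 lymphomas of mice carrying Em-Myc (Eμ-Myc), a transgene that puts Myc under the enhancer of the immunoglobulin heavy chain and so drives it in B cells. All tumours, controls included, carried this transgene. The mice were Bptf+/+ (wild type) or Bptf+/{delta}, with 1 deleted allele (Bptf+/Δ below) of Bptf, a subunit of the chromatin remodeller NURF. Wild-type early tumours (n = 6) arose at 9 to 17 weeks, wild-type late tumours (n = 5) at 28 to 76 weeks, Bptf+/Δ early tumours (n = 4) at 8 to 13 weeks and Bptf+/Δ late tumours (n = 4) at 30 to 66 weeks. Each library was a separate tumour, numbered within its group in accession order, and the numbers pair nothing.

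Ly6 proteins are small proteins held together by disulphide bonds in a finger-like fold, and most are tethered to the outer face of the plasma membrane by a glycosylphosphatidylinositol (GPI) anchor. Immunologists use them as surface antigens that change as blood cells mature or become activated. Ly6d marks lymphoid progenitors that have become committed to the B cell lineage, and Ly6a (Sca-1) marks stem and progenitor cells as well as lymphocytes activated by interferon. Ly6c1 and Ly6c2 encode the Ly-6C antigen of monocytes, plasma cells and some T cells, and Ly6e is a broadly expressed, interferon-inducible member.

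The 5 genes lie in 1 cluster on chromosome 15. In GENCODE M21 (GRCm38) the order is Ly6d (ENSMUSG00000034634.7, chr15:74762056-74763620, minus strand), Ly6e (ENSMUSG00000022587.14, chr15:74955051-74959905, plus strand), Ly6a (ENSMUSG00000075602.10, chr15:74994877-74998031, minus strand), Ly6c1 (ENSMUSG00000079018.10, chr15:75044018-75048830, minus strand) and Ly6c2 (ENSMUSG00000022584.14, chr15:75108158-75111970, minus strand). Ly6c1 and Ly6c2 are near-identical copies, and the sequences below are shown because reads from one can be counted for the other. Of 396 coding bases, 387 were identical between them (97.7%) and 9 differed, 6 of these within the first 120. These first 120 coding bases, from the GENCODE M21 transcripts, carry the differing bases in capitals.
Ly6c1: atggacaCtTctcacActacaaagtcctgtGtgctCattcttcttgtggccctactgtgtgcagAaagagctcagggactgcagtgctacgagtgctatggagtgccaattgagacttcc
Ly6c2: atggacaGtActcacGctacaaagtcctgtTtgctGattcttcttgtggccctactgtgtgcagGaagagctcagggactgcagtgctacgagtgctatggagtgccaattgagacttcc

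Over 50-base words, a length typical of short reads, 252 words were shared by the Ly6c1 and Ly6c2 transcripts, 31.7% of those of Ly6c1 and 32.6% of those of Ly6c2. The sources used here do not say how the authors' counting treated reads from the shared stretches, so the level of each of these copies is uncertain by what the other could lend it. Ly6a shared at most 3 such words with either copy, and Ly6d and Ly6e shared none with any of the other members.

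The promoters of the pair differed more than their coding bases. Over the 250 bases before the start of each gene, taken from RefSeq (GRCm38.p6, minus strand), 170 aligned bases were identical and 40 differed (81% identity), with 24 bases facing a gap. Capitals mark bases that differ from the other copy or face a gap inside the alignment, and the overhanging ends are in lower case.
Ly6c1 (chr15:75048838-75049087): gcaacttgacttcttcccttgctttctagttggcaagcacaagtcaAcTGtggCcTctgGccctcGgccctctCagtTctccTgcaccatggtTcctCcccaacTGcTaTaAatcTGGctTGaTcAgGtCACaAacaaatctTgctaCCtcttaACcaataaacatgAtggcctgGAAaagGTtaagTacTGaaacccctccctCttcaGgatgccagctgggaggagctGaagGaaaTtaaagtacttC
Ly6c2 (chr15:75111972-75112221): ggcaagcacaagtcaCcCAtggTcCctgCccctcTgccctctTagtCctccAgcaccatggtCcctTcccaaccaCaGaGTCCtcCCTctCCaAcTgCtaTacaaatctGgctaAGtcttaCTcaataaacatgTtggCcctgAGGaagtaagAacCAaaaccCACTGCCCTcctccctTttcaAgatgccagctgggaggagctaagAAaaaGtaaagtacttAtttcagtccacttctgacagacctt

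Both windows, extended 50 bases past the start, were searched on both strands for 4 motifs. The interferon-stimulated element (GAAA, any 2 bases, GAAA) stands in 3.44% of the 32851 promoter windows of the same length in the table, the STAT motif TTCNNNGAA in 8.3%, the E-box CACGTG in 7.15% and the motif of early B cell factor (TCCC, any 2 bases, GGGA) in 0.904%. None of the 4 motifs was found in the window of Ly6c1 or of Ly6c2.

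Levels are given as normalised read counts, the authors' counts divided by 1 factor per library. Divided by the exonic length of each gene, the median level over 19 tumours was 2815 per kilobase for Ly6e, 634 for Ly6d, 239 for Ly6a, 108 for Ly6c2 and 70.8 for Ly6c1. Ly6e was above Ly6d per kilobase in 16 of 19 libraries, Ly6d above Ly6a in 14, Ly6a above Ly6c2 in 13 and Ly6c2 above Ly6c1 in 13, so no neighbours in this order kept their places in every tumour. The spread over tumours differed widely among the 5 genes. The highest library was 1767 times the lowest for Ly6c2 and 522 times for Ly6d, against 87.5 times for Ly6a, 8.65 times for Ly6c1 and 7.95 times for Ly6e.

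**Figure D1:**
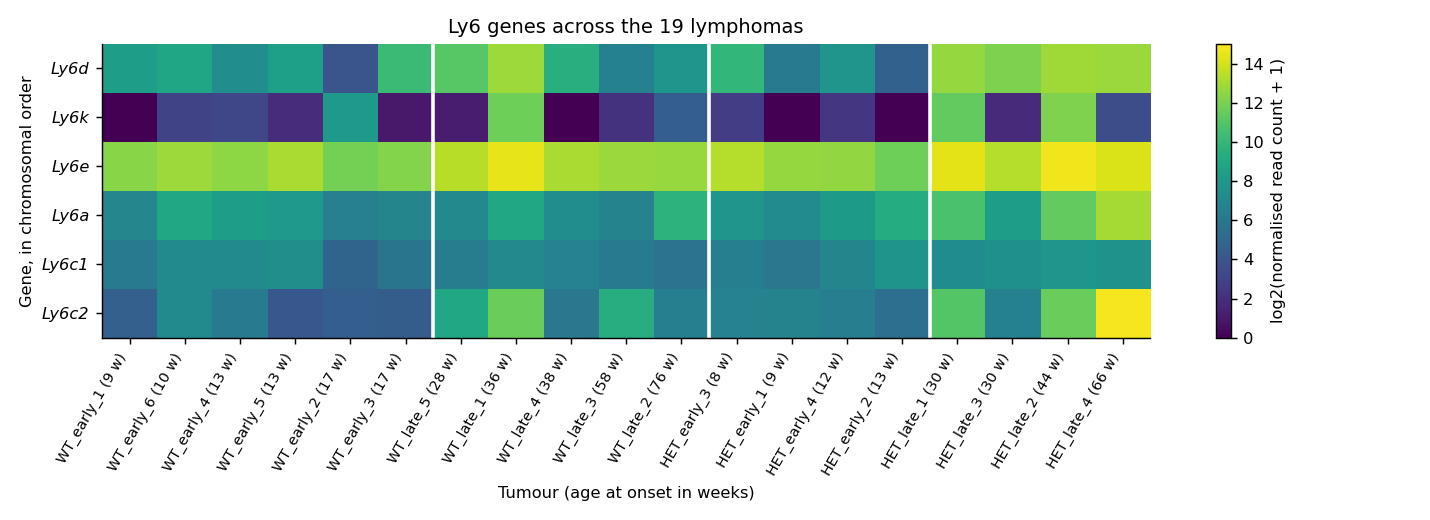
Heat map of 5 Ly6 genes and their neighbour Ly6k in each of the 19 lymphomas, with genes in chromosomal order (rows) and tumours grouped by genotype (WT, wild type, and HET, Bptf+/Δ) and onset and ordered by age in weeks (columns). Colour is log2(normalised read count + 1) from 0 to 15. The brightest Ly6c2 cell is Bptf+/Δ late tumour 4 at 66 weeks (28318.8), and Ly6k is bright in 3 late tumours.

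Several libraries stood apart. The most abundant transcript was Eef1a1 in 16 libraries, Bpifa2, a salivary gland gene, in wild-type early tumour 6, Col2a1, a cartilage gene, in Bptf+/Δ early tumour 2 and Igha, the immunoglobulin A constant region, in Bptf+/Δ late tumour 4. Recovered depth was 8297856 to 12497732 reads per library. Bptf was 407.6 to 1573.3 in Bptf+/Δ tumours and 1664.7 to 2585.7 in wild-type tumours. The summed level of 14 pan-B genes was 1426.3 in Bptf+/Δ early tumour 2 and at least 20927.2 in every other library, so this tumour lacked the B lineage signal of its label.

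Ly6d, the antigen of early B cell progenitors, was high in all 4 Bptf+/Δ late tumours and variable everywhere else. It stood at 6233.2, 7580.2, 4266.0 and 6782.7 in Bptf+/Δ late tumours 1 to 4. In the Bptf+/Δ early tumours it was 71.7, 23.9, 982.1 and 224.8, each below every Bptf+/Δ late tumour, and 1 of 5 members had groups that did not overlap in this way, beside 3.51% of all genes tested. Wild-type early tumours ran from 14.5 through a median of 345.9 to 1194.0. Wild-type late tumours 1 to 5 held 7274.8, 231.4, 94.0, 711.7 and 2171.3, so tumour 1 was as high as the Bptf+/Δ late group, tumour 5 was also above every wild-type early tumour, and the rest overlapped them. On the log2(value + 1) scale the late minus early difference of Ly6d was 5.42 ± 1.30 (SE) in Bptf+/Δ and 1.69 ± 1.11 in wild type.

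Ly6c2, the Ly-6C gene whose rise chose the family, was high in only some of the late tumours. The Bptf+/Δ late tumours held 2001.1, 3100.9, 93.6 and 28318.8, so that tumour 3 sat among the Bptf+/Δ early tumours, which held 104.3, 43.9, 98.8 and 84.2. Wild-type late tumours 1 to 5 held 3191.1, 88.7, 651.9, 62.8 and 491.9, and tumours 1, 3 and 5 were above the wild-type early group, which ran from 16 through a median of 22.4 to 141.4. In each genotype, then, early tumours were low and late tumours were split. The late minus early difference was 4.67 ± 1.31 in Bptf+/Δ and 3.33 ± 1.12 in wild type.

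Ly6c1, its near-identical copy, varied far less. It was 156.8, 236.2, 187.2 and 201.7 in the Bptf+/Δ late tumours, which are 134 to 238 reads. Wild-type late tumours held 133.7, 52.0, 72.3, 97.9 and 77.7, and every one was below every Bptf+/Δ late tumour. The Bptf+/Δ early tumours held 61.5, 219.3, 88.2 and 118.7, and the wild-type early tumours ran from 27.3 through 103.6 to 170.0. The late minus early difference was 0.82 ± 0.50 in Bptf+/Δ and -0.04 ± 0.43 in wild type, the smallest of the 5 genes in both genotypes. The ratio of Ly6c2 to Ly6c1 went from 0.0942 in wild-type early tumour 5 to 140.4 in Bptf+/Δ late tumour 4. In that last tumour the whole count of Ly6c1 was 0.712% of that of Ly6c2, which bounds what Ly6c2 reads can have added to Ly6c1 there. In Bptf+/Δ late tumour 3 the order was the reverse, with Ly6c1 at 200% of Ly6c2.

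**Figure D2:**
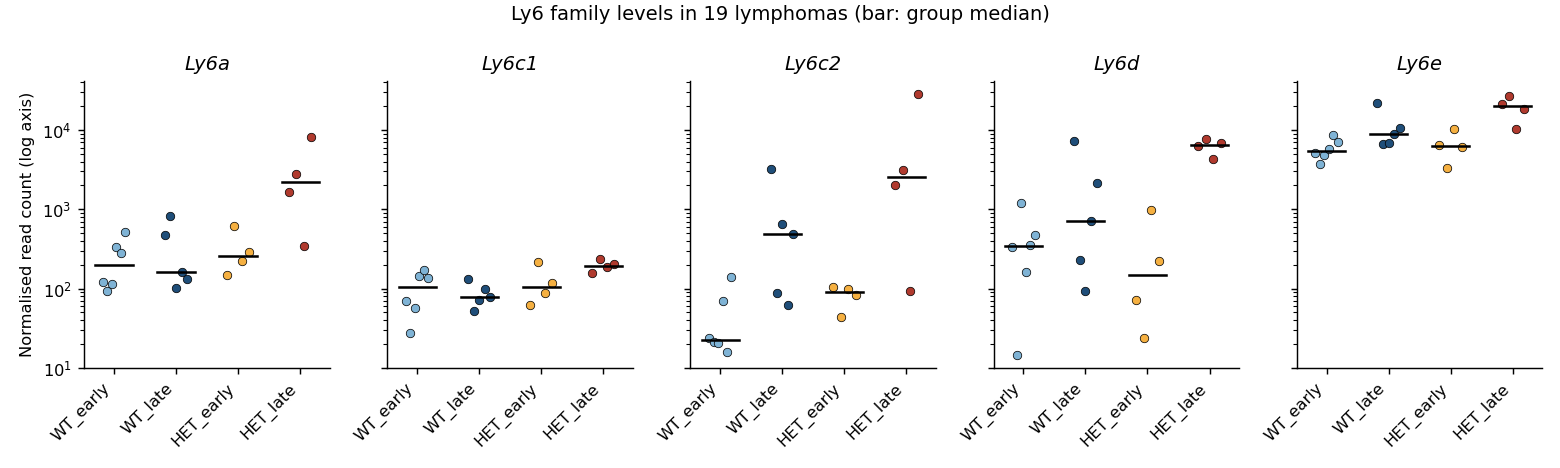
Normalised read counts on a log axis for the 5 Ly6 genes in the 19 lymphomas, 1 point per tumour, with a bar at each group's median (wild-type, WT, and Bptf+/Δ, HET). Ly6d is 4266.0 to 7580.2 in the 4 Bptf+/Δ late tumours and at most 1194.0 in the early groups, while Ly6c1 stays between 27.3 and 236.2 throughout.

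Ly6a (Sca-1) was highest in Bptf+/Δ late tumours. Bptf+/Δ late tumours 1 to 4 held 1631.7, 2746.6, 344.6 and 8140.8. The wild-type late tumours held 480.4, 816.4, 102.4, 161.9 and 133.0, so 3 of 4 Bptf+/Δ late tumours were above all of them and tumour 3 lay within their range. The Bptf+/Δ early tumours held 148.1, 616.8, 225.3 and 287.9, and the wild-type early tumours ran from 93.1 through 199.8 to 512.5, and these early groups overlapped. The late minus early difference was 2.76 ± 0.82 in Bptf+/Δ and 0.30 ± 0.70 in wild type.

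Ly6e, per kilobase the most abundant member in most tumours, was well expressed in every library. It was 21225.0, 26538.5, 10222.4 and 18536.9 in Bptf+/Δ late tumours, and 22016.1, 6595.5, 6845.1, 8905.0 and 10718.6 in wild-type late tumours. Bptf+/Δ early tumours held 6445.8, 3339.1, 10393.1 and 6082.6, and wild-type early tumours ran from 3725.5 through 5421.9 to 8666.6. The groups overlapped, with 3 of 4 Bptf+/Δ late tumours above the Bptf+/Δ early group and 3 of 5 wild-type late tumours above the wild-type early group. No member had every wild-type late tumour above every wild-type early tumour (0.502% of all genes). Late minus early it differed by 1.57 ± 0.40 in Bptf+/Δ and 0.81 ± 0.34 in wild type.

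The genotype comparison was not used to choose the genes and asks whether loss of 1 Bptf allele goes with another level of them. Averaged over onset classes, all 5 genes were higher in Bptf+/Δ tumours, and none passed the test after adjustment over all genes. By limma on log2(value + 1) the difference was 1.71 ± 0.54 (SE) for Ly6a, 0.79 ± 0.33 for Ly6c1, 1.83 ± 0.86 for Ly6c2, 1.14 ± 0.86 for Ly6d and 0.49 ± 0.26 for Ly6e. The unadjusted limma p-values were 0.00498, 0.0268, 0.0471, 0.200 and 0.0773 in that order, and the adjusted ones were 0.493 for the first 3, 0.580 for Ly6d and 0.502 for Ly6e. After adjustment limma called 0 of 19927 genes (0%) in this comparison, edgeR called 0 and DESeq2 called 18 (0.12%). At an unadjusted limma p under 0.05 stood 3 of the 5 Ly6 genes and 1988 genes in all (9.98%). The 5 genes are neighbours measured in the same libraries, so they do not count as 5 separate observations. By DESeq2 the averaged difference of Ly6a was 1.82, with an adjusted p of 0.0956. The authors' deposited table has a genotype comparison that names no onset class, so it need not weigh the classes equally as here. In it Ly6a had a log2 fold change of 2.63 and an adjusted p of 0.024. There 55 of 16279 genes (0.338%) had an adjusted p under 0.05. The other 4 members had adjusted p-values from 0.232 to 0.436.

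Within the late tumours all 5 genes again had higher means in Bptf+/Δ. The difference was 2.94 for Ly6a (95% interval 1.32 to 4.57), 3.01 for Ly6d (0.42 to 5.59), 2.50 for Ly6c2 (-0.10 to 5.09), 1.22 for Ly6c1 (0.23 to 2.21) and 0.87 for Ly6e (0.08 to 1.66). The unadjusted limma p-values were 0.00124, 0.025, 0.0588, 0.0184 and 0.0322 in that order, so 4 of 5 were under 0.05, beside 6.13% of all genes, and each adjusted p was 0.796. Limma called 0 of 19927 genes (0%), 1222 having an unadjusted p under 0.05, edgeR called 0 and DESeq2 called 35 (0.252%). Ly6a was among those 35, with a DESeq2 log2 difference of 3.25 and an adjusted p of 0.018, and the authors' deposited table gave it 3.24 with an adjusted p of 0.0577. The other 4 members were not called by DESeq2. By level alone, 1 of 5 members, Ly6c1, had every Bptf+/Δ late tumour above every wild-type late tumour, which held for 0.477% of all genes.

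Single tumours moved some of these values. Without Bptf+/Δ late tumour 4, the one led by Igha, the late difference of Ly6c2 was 1.23 and that of Ly6a 2.24, and without Bptf+/Δ late tumour 3 they were 3.97 and 3.76. For Ly6d the late difference was 2.26 to 3.82 whichever tumour was left out on this scale, and 1.56 by edgeR on the reads.

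In the early tumours all 5 estimates were closer to 0. Bptf+/Δ minus wild type was 0.48 for Ly6a (95% interval -1.08 to 2.04), 0.36 for Ly6c1 (-0.60 to 1.31), 1.16 for Ly6c2 (-1.34 to 3.66), -0.73 for Ly6d (-3.22 to 1.75) and 0.11 for Ly6e (-0.65 to 0.86). No member had every Bptf+/Δ early tumour above every wild-type early tumour (1.5% of all genes). None of the 5 had an unadjusted limma p under 0.05, beside 11.5% of all genes, and adjusted p-values ran from 0.681 to 0.916. Limma and edgeR called 0 of 19927 genes (0%), 2293 having an unadjusted limma p under 0.05, and DESeq2 called 400 (2.67%), no member among them. The early intervals of Ly6c2 and Ly6c1 are wide enough to hold the late differences of these genes, 2.50 and 1.22. That of Ly6d is wide but ends below its late difference of 3.01. Without the 3 libraries led by another transcript the early difference of Ly6d was 0.30, of the opposite sign.

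The test of the difference between late and early tumours in the genotype effect gave no call. It was 2.46 ± 1.08 (SE) for Ly6a and 3.74 ± 1.71 for Ly6d, with unadjusted limma p-values of 0.0339 and 0.0419 and adjusted ones of 0.714 for both. For Ly6c1, Ly6c2 and Ly6e it was 0.86, 1.33 and 0.76, with adjusted limma p-values of 0.763 to 0.864. The value of Ly6c2 was 0.0639 without Bptf+/Δ late tumour 4, 2.81 without Bptf+/Δ late tumour 3 and -0.612 without the 3 libraries led by another transcript. Thus 2 of 5 members had an unadjusted p under 0.05, beside 6.94% of all genes (1382), while limma called 0 of 19927 (0%), edgeR 0 and DESeq2 96 (0.657%), no member among them.

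**Figure D3:**
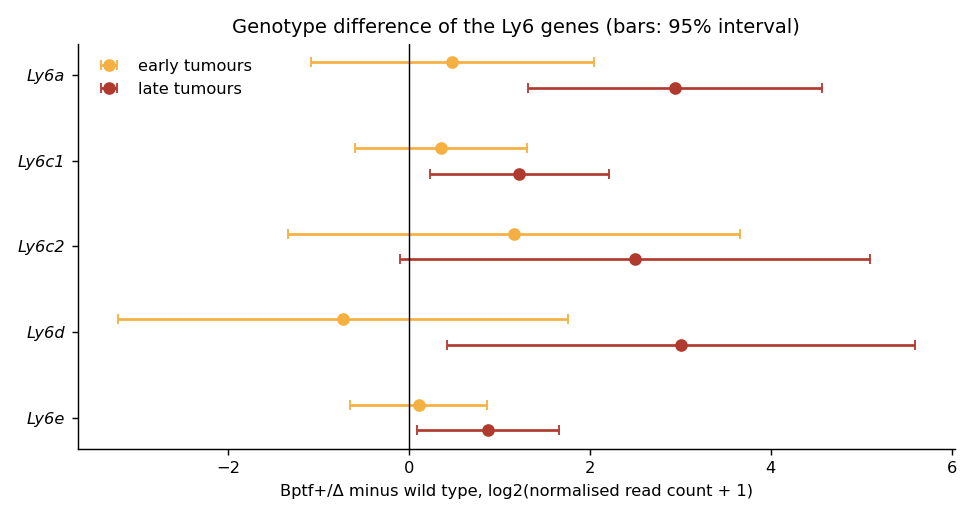
Bptf+/Δ minus wild type on the log2(normalised read count + 1) scale for each Ly6 gene, in early (10 tumours) and late (9 tumours) onset classes, with 95% intervals from the limma fit. All 5 late estimates are above 0, from 0.87 to 3.01, and all 5 early intervals include 0.

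The members were then compared with each other across tumours, in 10 pairs. Over all 19 tumours such correlations include the onset difference that chose the family, so they are described only, and the values within the early (10) and within the late (9) tumours were tested. Tumours of both genotypes enter each class, and the permutations did not keep the genotypes apart. Ly6d and Ly6e, which lie on either side of Ly6k, went together most closely, with Pearson's r of 0.88 over all tumours. Within late tumours r was 0.887 (exact permutation p = 0.000529, adjusted over 10 pairs 0.00529) and Spearman's rho was 0.95 (exact permutation p = 0.000353, adjusted 0.00353). Without the 2 tumours farthest from the median r was 0.842, and with each late tumour left out in turn the adjusted p was under 0.05 in 6 of 9 cases (at most 0.0603). Within early tumours r was 0.683 (permutation p = 0.0294, adjusted 0.147) and rho 0.527 (permutation p = 0.123, adjusted 0.583), and r was 0.184 without the 2 farthest, so the early relation rests on those tumours.

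Ly6a and Ly6c1 went together in early tumours, with r = 0.913 (permutation p = 0.00022, adjusted 0.0022), rho = 0.903 (permutation p = 0.00073, adjusted 0.0073) and r = 0.875 without the 2 farthest. The adjusted p was at most 0.0201 whichever of the 10 tumours was left out. In late tumours r was 0.634 (exact permutation p = 0.0698, adjusted 0.0998) and rho 0.667 (exact permutation p = 0.0589, adjusted 0.0841), and whether the classes differ was not tested. Ly6c1 and Ly6d were related in late tumours, with r = 0.844 (exact permutation p = 0.00382, adjusted 0.0191), rho = 0.85 (exact permutation p = 0.00607, adjusted 0.0304) and r = 0.734 without the 2 farthest, the adjusted p staying under 0.05 in 6 of 9 leave-outs. Late tumours of both genotypes enter these values, and both genes were higher in Bptf+/Δ late tumours. The near-identical pair was the least related of the 10 over all tumours, with r = 0.441 between Ly6c1 and Ly6c2. Within early tumours that pair had r = 0.27 (permutation p = 0.452) and rho = 0.0788 (permutation p = 0.838), and within late tumours r = 0.57 (exact permutation p = 0.11) and rho = 0.583 (exact permutation p = 0.108).

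**Figure D4:**
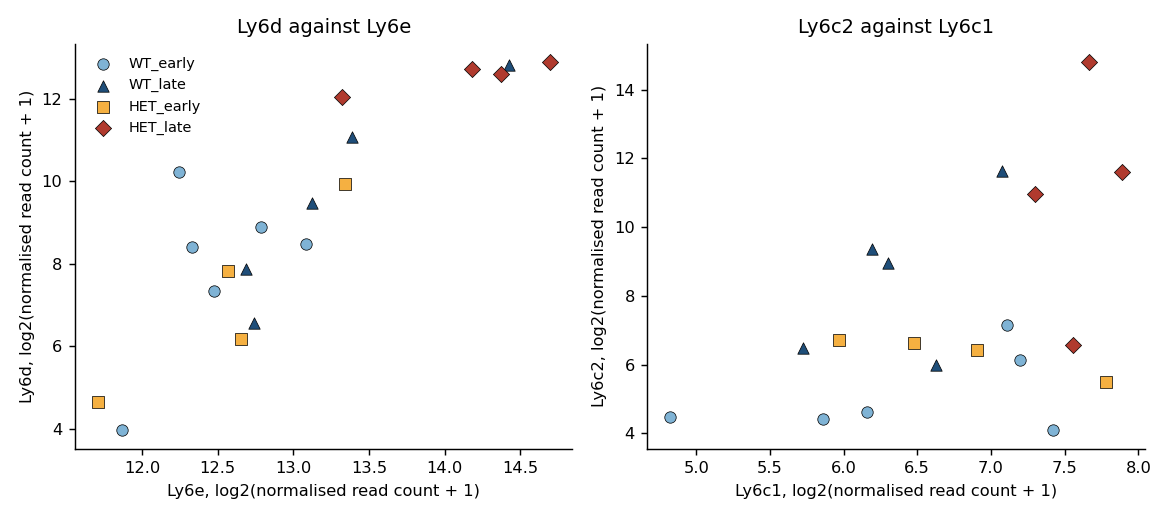
Pairs of members across the 19 lymphomas on the log2(normalised read count + 1) scale, with Ly6d against Ly6e (left) and Ly6c2 against Ly6c1 (right). Symbols give genotype and onset. Ly6d and Ly6e lie along a line (r = 0.88), and Ly6c2 spans far more than Ly6c1 (r = 0.441).

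Age at onset is known in weeks for each tumour. Within the 9 late tumours no relation of a member to it passed adjustment. Pearson's r with log2 weeks was 0.34 for Ly6a, -0.292 for Ly6c1, 0.16 for Ly6c2, -0.495 for Ly6d and -0.296 for Ly6e, with exact permutation p-values adjusted over 5 relations of 0.544 to 0.678. Spearman's rho was -0.343 to 0.343 (adjusted exact permutation p = 0.818 for each). Without the 2 farthest tumours r was -0.648 to 0.165, the lowest being that of Ly6d. With each late tumour left out r of Ly6d was -0.7313 to -0.2985.

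A bulk tumour holds other cells beside the lymphoma, and fewer cells of a type cannot be told apart from less RNA per cell. Marker lists of 10 cell types and responses were therefore set beside the members, in 50 relations. Tumours of both genotypes enter each relation, and the permutations did not keep the genotypes apart, so genotype differences are part of these values. Ly6a was related to several of the lists in late tumours, and by r the plasma cell list alone passed adjustment. Within late tumours r between Ly6a and the mean z score of the 15 plasma cell genes was 0.861 (exact permutation p = 0.00177, adjusted over 50 relations 0.0444), rho was 0.917 (exact permutation p = 0.00131, adjusted 0.0328) and r was 0.878 without the 2 farthest. With each late tumour left out r was 0.76 to 0.945, and the adjusted p was under 0.05 in 2 of 9 cases (up to 0.167). With the monocyte and macrophage, T cell and cytotoxic lymphocyte lists r of Ly6a in late tumours was 0.845, 0.838 and 0.808 (exact permutation p = 0.00533, 0.00602 and 0.0111, adjusted 0.0602, 0.0602 and 0.0688) and rho 0.733, 0.80 and 0.733 (exact permutation p = 0.0311, 0.0138 and 0.0311, adjusted 0.111 for each). Within early tumours no relation of Ly6a to any list passed adjustment. Over all 19 tumours, and without the 3 libraries led by another transcript, r of Ly6a was 0.847 and 0.818 with the plasma cell list and 0.766 and 0.772 with the T cell list. The plasma cell genes summed to 17541.1 to 852903.6 in the Bptf+/Δ late tumours (median 19928.6) and to 8221.1 to 69817.9 in the wild-type late tumours (median 14151.2). Most of the highest sum, that of Bptf+/Δ late tumour 4, was Igha, at 752207.8. In the late genotype comparison 13 of 15 plasma cell genes had higher means in Bptf+/Δ (median log2 difference 1.21, all genes 0.02), among them Prdm1 at 2.12 and Xbp1 at 1.15, regulators of plasma cell differentiation, and limma called 0 of 15. The part of plasma cells, or of plasma cell features of the tumour itself, in the Ly6a level was not tested.

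In the same late tumours Ly6a ran opposite to genes of pro-B and pre-B cells. Between Ly6a and this list rho was -0.983 (exact permutation p = 4.96e-05, adjusted 0.00248) and r was -0.839 (exact permutation p = 0.00424, adjusted 0.0602), with -0.809 without the 2 farthest and -0.898 to -0.811 with each tumour left out. The 15 genes of this list summed to 869.9 to 8620.8 in Bptf+/Δ late and 2345.6 to 19092.9 in wild-type late tumours. All 15 had lower means in Bptf+/Δ late tumours (median -1.40), including the recombinase genes Rag1 at -4.95 and Rag2 at -3.67, and limma called 0 of them. Late tumours of both genotypes enter the relation, and the mean of Ly6a was higher in Bptf+/Δ late tumours. Ly6d, itself an antigen of B cell progenitors, had r = -0.763 with this list in late tumours (exact permutation p = 0.0183, adjusted 0.0831) and rho = -0.80 (exact permutation p = 0.0138, adjusted 0.111). The part of the maturation stage of the tumour cells in either level was not tested.

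Ly6c2, like each of the other members, had a positive r with genes of monocytes and macrophages in late tumours, and by r Ly6c2 alone passed adjustment. With the mean z score of the 20 genes r was 0.923 (exact permutation p = 0.000262, adjusted 0.0131), rho 0.867 (exact permutation p = 0.00451, adjusted 0.0751), and r 0.855 without the 2 farthest. With each late tumour left out r was 0.872 to 0.963, the adjusted p being under 0.05 in 4 of 9 cases (up to 0.165). For Ly6e with the same list r was 0.869 (exact permutation p = 0.00729, adjusted 0.0607), rho 0.733 (exact permutation p = 0.0311, adjusted 0.111) and r 0.887 without the 2 farthest, beside the 0.845 of Ly6a given above. For Ly6d r was 0.688 (exact permutation p = 0.0397, adjusted 0.124) and rho 0.733 (exact permutation p = 0.0311, adjusted 0.111). For Ly6c1 r was 0.664 (exact permutation p = 0.0556, adjusted 0.155) and rho 0.50 (exact permutation p = 0.178, adjusted 0.355). Over all 19 tumours r of Ly6c2 with this list was 0.548, and it was 0.865 without Bptf+/Δ early tumour 2. In that tumour Csf1r, the macrophage growth factor receptor gene, was 6667.5 while Ly6c2 was 43.9. The list summed to 8257.4 to 39634.9 in Bptf+/Δ late, 10210.0 to 45424.4 in wild-type late, 13248.6 to 46370.9 in Bptf+/Δ early and 7859.2 to 17242.0 in wild-type early tumours. The part of such cells in the Ly6c2 level was not tested. In early tumours r of Ly6c2 with the monocyte and macrophage list was 0.233 (permutation p = 0.627, adjusted 0.76) and rho 0.527 (permutation p = 0.124, adjusted 0.412), and r was 0.664 without Bptf+/Δ early tumour 2. With the T cell list Ly6c2 had r = 0.896 (permutation p = 0.00048, adjusted 0.024), rho = 0.83 (permutation p = 0.0048, adjusted 0.0977) and r = 0.871 without the 2 farthest, the adjusted p being under 0.05 in 5 of 10 leave-outs (up to 0.172). It was also related in early tumours to the neutrophil list, with r = 0.868 (permutation p = 0.00367, adjusted 0.0917) and rho = 0.794 (permutation p = 0.00877, adjusted 0.107), and to the cytotoxic lymphocyte list, with r = 0.781 (permutation p = 0.00565, adjusted 0.0942) and rho = 0.818 (permutation p = 0.00586, adjusted 0.0977), neither past adjustment. Whether the early and late tumours differ in any of these relations was not tested.

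**Figure D5:**
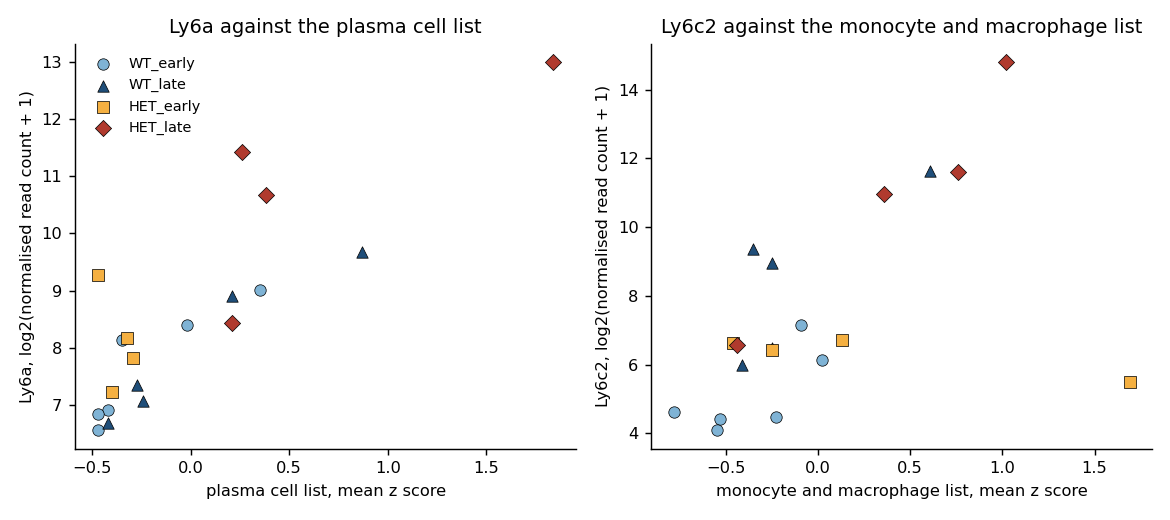
Ly6a against the plasma cell list (left) and Ly6c2 against the monocyte and macrophage list (right) in the 19 lymphomas, with each list as the mean z score of its genes and each member as log2(normalised read count + 1). The tumour with the highest Ly6a and Ly6c2 is Bptf+/Δ late tumour 4, and the point at the far right with low Ly6c2 is Bptf+/Δ early tumour 2.

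Ly6a and Ly6e are known targets of interferon, and the 39 interferon response genes were set beside them. In the late genotype comparison 36 of 39 had higher means in Bptf+/Δ (median 0.91), with the GTPase gene Igtp at 1.81 and the nucleic acid sensor gene Zbp1 at 2.62, and limma called 0. The list summed to 8304.6 to 15539.1 in Bptf+/Δ late and 3656.3 to 13572.2 in wild-type late tumours. Within late tumours Ly6a had r = 0.801 with the list (exact permutation p = 0.0113, adjusted 0.0688), rho = 0.75 (exact permutation p = 0.0255, adjusted 0.111) and r = 0.737 without the 2 farthest. Within early tumours it had r = 0.336 (permutation p = 0.341, adjusted 0.568), rho = 0.2 (permutation p = 0.58, adjusted 0.728) and r = -0.352 without the 2 farthest. For Ly6e r was 0.449 in late tumours (exact permutation p = 0.214, adjusted 0.383) and -0.205 in early tumours (permutation p = 0.569, adjusted 0.749), with rho 0.167 (exact permutation p = 0.678, adjusted 0.721) and -0.152 (permutation p = 0.682, adjusted 0.787). Over all 19 tumours r was 0.579 for Ly6a and 0.111 for Ly6e.

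Other genes of the Ly6 and uPAR family were mostly low. Of 33 listed, 18 were in the table and 16 passed the filter. Averaged over onset, 14 of the 16 (87.5%) had higher means in Bptf+/Δ tumours, beside 55.8% of all genes (median 0.47, all genes 0.06). Limma called none of them. Cd59b, Lypd1, Lypd6b, Spaca4, Ly6g6c, Ly6g6e and Ly6g6f had a median of 0, so their directions rest on few reads. Those with the smallest unadjusted p were the complement regulator genes Cd59a at 1.58 and Cd59b at 1.27 and the nicotinic receptor modulator gene Lynx1 at 1.5, each with a limma adjusted p of 0.493. Cd59a ran from 7.7 to 670.0, the highest being Bptf+/Δ late tumour 4, while Cd59b was at most 12.0 and was 0 in 11 libraries. Ly6g, the neutrophil antigen gene next to the Ly6c genes, was at most 7.3 in any tumour, Ly6i, the closest to Ly6a in coding sequence, was at most 61.7, and Ly6f and Ly6h did not pass the filter. Plaur, the urokinase receptor gene, was 1268.1 in Bptf+/Δ early tumour 2.

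Ly6k, which sits between Ly6d and Ly6e, was high in 3 late tumours and low in most others. It was 3273.2 in wild-type late tumour 1, 2733.7 and 4430.3 in Bptf+/Δ late tumours 1 and 2, and 268.1 in wild-type early tumour 2. In every other tumour it was at most 21.4, including Bptf+/Δ late tumours 3 and 4, in which Ly6d was 4266.0 and 6782.7.

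The enzymes that build and attach the GPI anchor showed no shared direction. Of 28 listed genes 27 were tested, and averaged over onset 12 had higher means in Bptf+/Δ tumours (44.4%, median -0.04), beside 55.8% of all genes, with limma calling none. Pgap3, which remodels the lipid of the anchor, had the smallest p of the list at a difference of 0.57, and Pigw, an acyltransferase of the pathway, was at -0.52.

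The cluster lies on chromosome 15, and 4 tumours had a raised level of that chromosome as a whole. For this the log2 level of each gene was centred on its mean over the tumours. The level is the median over 421 other genes of chromosome 15 minus the median over genes of the other autosomes. It was 0.383 in wild-type early tumour 5, 0.379 and 0.524 in wild-type late tumours 1 and 5 and 0.272 in Bptf+/Δ late tumour 1. In the rest it was -0.245 to 0.060. Across the 19 tumours r with this level was 0.61 for Ly6e, 0.56 for Ly6d, 0.41 for Ly6c2, 0.22 for Ly6c1 and 0.17 for Ly6a, given as a description. Among the tumours with a raised level, Ly6d was 7274.8 and 2171.3 in wild-type late tumours 1 and 5. It was 6233.2 in Bptf+/Δ late tumour 1 and 354.3 in wild-type early tumour 5. Bptf+/Δ late tumours 2, 3 and 4, whose chromosome level was 0.015, -0.082 and 0.060, had Ly6d at 7580.2, 4266.0 and 6782.7. The part of the chromosome in the Ly6d level was not tested.

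For each member the 5 genes of most similar pattern, not all of which are named here, were taken by Pearson's r over the 19 tumours. They were sought among 13603 genes with a mean of at least 10. These values include the onset difference that chose the family, so they are a description only. Within early tumours r was 0.357 for Sla with Ly6d and 0.428 for Igtp with Ly6a, beside 0.966 and 0.932 within late tumours. For the 5 genes nearest to Ly6c1 it was 0.892 to 0.935 within early tumours. Nearest to Ly6a were Chid1 (r = 0.897), Bscl2 (0.895), the chemokine gene Ccl8 (0.888), the endoplasmic reticulum stress gene Manf (0.884) and Igtp (0.881). Those nearest to Ly6c1 were Dpt (0.865), a gene of the extracellular matrix, Clec10a (0.860), a lectin of macrophages and dendritic cells, Clec3b (0.851), Retsat (0.841) and Adgre5 (0.839). Ly6c2 was matched by Tmem154 (0.879), H13 (0.865), Adora2a (0.830) and 1 locus known only by a clone name. Around Ly6d stood Cdpf1 (0.889), Ly6e (0.880), another such locus, the adaptor gene Sla (0.851) and Cd47 (0.842). Ly6e was closest to Unc93b1 (0.909), which carries nucleic acid sensing Toll-like receptors, Vps28 (0.908), Kptn (0.891), Sys1 (0.889) and Ly6d (0.880). Cdpf1, Sla and Vps28 are also on chromosome 15.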

How the data were processed

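RNA of 19 tumours was sequenced as polyadenylated libraries, per the labels' protocols. The submitters' processing notes name TopHat2 (2.1.1), FastQC (0.11.5), Cufflinks (2.2.1) with Cuffdiff and Cuffnorm, and builds mm10 and GRCm38. Neither the counting tool nor its strand setting and annotation is named in them. The deposited signal is the authors' read count per gene divided by 1 factor per library, and all values (100%) were whole reads within 0.01. The authors also deposited log2 fold changes and adjusted p-values for 5 comparisons. Of 21086 symbols, 16109 were found in GENCODE M21, and 23 had been turned into dates by a spreadsheet.

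The main test was limma 3.58.1 (R 4.3.3) on log2(value + 1) with 4 group means, a trend in variance and Benjamini-Hochberg adjustment over the 19927 genes that reached a value of 1 in 4 or more libraries. A gene was called at an adjusted p under 0.05. Alternatives included edgeR 4.0.16 (quasi-likelihood, TMM) and DESeq2 1.42.0 on the recovered reads, and the fits were tested on simulated data. Relations used 100000 permutations, or exact ones below 10 tumours. No library repeated another: chi-square per gene was 17.2 or more in each of 171 pairs. Differences on the log2(value + 1) scale understate changes of low genes.

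The 5 members and all lists were chosen with earlier results of these data known. Named besides the members are the 5 nearest genes of each, up to 4 genes of smallest limma p per list described, and detected family genes. Some items that this rule names are not reported here. Marker genes printed beside results (Cd79a, Csf1r, Igha) were chosen after their values were seen.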

Additional observations from a re-analysis of the deposited data

How the results depend on the processing

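No paired analysis was possible because the replicate numbers were given in accession order and pair no tumours. Of 150 values of the 20 genotype results under other settings 145 kept their direction and side of the threshold, and so did 377 of 380 with 1 tumour left out. Weighting libraries by quality turned the early differences of Ly6a and Ly6c1 to -0.12 and -0.166, called 110 genes in the early comparison in place of 0, and turned the wild-type late minus early value of Ly6a to -0.32. DESeq2 called 18, 400, 35 and 96 genes in the averaged, early, late and difference comparisons and put the late difference of Ly6a, 3.25, past the threshold. Without the 3 libraries led by another transcript the early difference of Ly6d was 0.304, the late minus early difference of the genotype effect for Ly6c2 was -0.612, the wild-type late minus early value of Ly6c1 was 0.0932, r of Ly6c2 with weeks was -0.207 and r of Ly6e with the interferon list in early tumours was 0.151.

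With each tumour left out in turn, the early difference of Ly6d was -1.66 to 0.103 and that of Ly6e -0.153 to 0.393, and limma called 0 to 2 genes in the early and 0 to 2 in the late comparison. The wild-type late minus early value was -0.138 to 0.608 for Ly6a and -0.363 to 0.155 for Ly6c1, and r with weeks was -0.553 to 0.1002 for Ly6c1 and -0.207 to 0.535 for Ly6c2. In early tumours r of Ly6e with the interferon list was -0.409 to 0.188. The causes were not tested. Among the 10 relations between members within late tumours, those past an adjusted p of 0.05 by r were Ly6d with Ly6e, Ly6c1 with Ly6d and Ly6c1 with Ly6e. The last had r = 0.808 (exact permutation p = 0.0141, adjusted 0.0472) and rho = 0.767 (exact permutation p = 0.0214, adjusted 0.0622). Over all 10 relations 13 of 90 leave-out values fell short where the full set had passed, with 8 tumours left in each. All 13 belong to the named relations, since no other could fall short in this way.

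Groups held 4 to 6 tumours, and Ly6c1 rests on 32 to 238 reads per library. The lowest libraries of Ly6c2 and Ly6d rest on fewer, 18 reads in wild-type early tumour 5 and 17 in wild-type early tumour 2. The reads were amplified with no molecular identifiers, so read counts give a lower limit of the error. The labels give protocol versions with different cycle numbers but not which library had which, and no batch term was fitted. The p-values measure the spread between single tumours.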

Other observations

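The 3 tumours with the highest Ly6k, a pattern noticed after its values were seen, also held the 3 highest Ly6e values of the series. In wild-type late tumour 1, Bptf+/Δ late tumour 1 and Bptf+/Δ late tumour 2, Ly6k was 3273.2, 2733.7 and 4430.3, Ly6e was 22016.1, 21225.0 and 26538.5, and Ly6c2 was 3191.1, 2001.1 and 3100.9. The B cell receptor component gene Cd79a was 103.3, 517.5 and 3754.8 in them. Bptf+/Δ late tumour 4 had the highest Ly6c2 and Ly6a of the series, with Ly6k at 10.5 and Cd79a at 1352.0. Bptf+/Δ early tumour 2 had Ly6k at 0, Ly6c2 at 43.9, Cd79a at 38.5 and the lowest Ly6e of the series (3339.1). Bptf+/Δ late tumour 3, at 30 weeks, had Cd79a at 4793.8, Ly6d at 4266.0 and Ly6c2 at 93.6. The relation of these genes to each other was not tested, as the tumours were singled out by their values.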
